A study of Mus musculus with 9 samples.

Results

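RNA from the kidney cortex of mice given cisplatin together with YSJZD was compared with RNA from mice given cisplatin and water, both on day 4. Cisplatin is a platinum chemotherapy agent whose use is limited by damage to kidney tubules, and YSJZD is Yishen Jiangzhuo decoction, a herbal medicine. Each group has 3 libraries, so that 6 of the 9 libraries of the series are compared over 13954 tested genes. The other 3 libraries form the control group. All samples are labelled WT. Cisplatin went into the peritoneum in both groups compared, which then received pure water (the group called cisplatin here) or YSJZD (labelled cisplatin+YSJZD, called YSJZD here) into the stomach. Control mice had saline into the peritoneum and pure water into the stomach, and their levels are given below as a reference without a test. Doses, strain, age and the number of days of dosing are not given in the sources. Whether the 3 samples of a group came from separate mice is not in the labels, so a p-value here measures the spread among samples that may be technical.

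The proximal tubule, the first segment of the nephron, takes back most of the filtered solutes through brush border transporters and feeds this work by burning fatty acids in its mitochondria. It also takes up cisplatin through organic cation transporters, and this makes it the main site of injury. Injured tubule cells are known to lose transporters, to switch on injury genes such as Havcr1 and Lcn2, to halt the cell cycle through p53 and its target Cdkn1a, and to release chemokines that draw in neutrophils and macrophages.

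Library totals lay between 15029286 and 16690482 expected counts. Levels are in CPM (counts scaled to a common library size, with TMM factors), and at this depth 3 counts in 1 library stand for 0.163 to 0.219 CPM. Defining markers of the cortex were present in all 9 libraries, with Slc34a1 at 122 CPM or more, Lrp2 at 201 or more and Slc12a3 at 4.34 or more. The Y-linked genes Eif2s3y (29 to 67.5 CPM) and Kdm5d (18.1 to 26.6 CPM) were read in every library. Within the groups, 3 libraries stood apart in ways that touch results below. YSJZD replicate 1 lay nearest to the cisplatin libraries in proximal tubule and injury genes, cisplatin replicate 2 had the highest macrophage genes, and cisplatin replicate 3 had the lowest endothelial genes.

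In all, 4942 of the 13954 genes (35.4%) had a Benjamini-Hochberg adjusted p under 0.05 in edgeR's quasi-likelihood test and are termed called. Of these, 2426 (17.4% of those tested) were higher with YSJZD and 2516 (18%) were lower. A change of at least 2-fold was seen in 1084 called genes that were higher (7.77%) and in 1583 that were lower (11.3%). The 3 libraries of each side did not overlap in 3313 genes that were higher (23.7%) and 3287 that were lower (23.6%). Scaling by library totals without TMM gave 4802 calls, of which 45% were higher, against 49.1% with TMM. These shares are the background for the gene lists below, and the median log2 fold change of all tested genes was -0.01. In mean CPM, the largest rises among called genes were those of Kap, Slc34a1 and the aspartic protease gene Napsa, and the largest falls of genes with a symbol those of Mt1, Lcn2 and Mt2. A larger fall was seen in Entrez gene 105246811 (gene105246811), for which no symbol was matched, from 8141, 6650 and 21955 CPM to 211, 1340 and 39.7 (-4.53 ± 1.26, adjusted p = 0.0188), with 1026, 650 and 86.9 in control. It was chosen after its values were seen, and libraries of every group spread widely. Its value was -3.80 without cisplatin replicate 3 and -6.61 without YSJZD replicate 2, and the call was lost without YSJZD replicate 1 (-4.15, adjusted p = 0.0615).

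**Figure D1:**
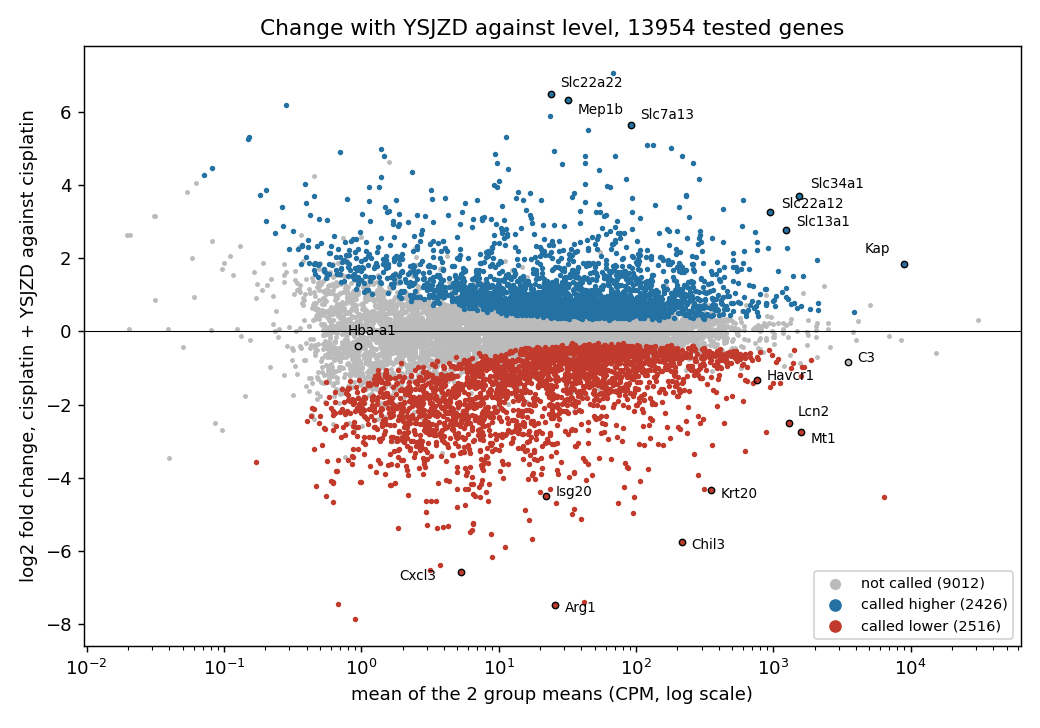
Log2 fold change of YSJZD against cisplatin (y axis) by the mean of the 2 group means in CPM (x axis, log scale) for 13954 tested genes. Blue points are 2426 genes called higher, red points 2516 called lower, and grey points were not called. The steepest called falls reach past -7 (Arg1, -7.47) and the steepest rises past 6 (Gm10681, 7.05; Slc22a22, 6.49).

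Transporter and brush border genes of the proximal tubule led the rises. Slc22a22 (Entrez gene 210463), a member of the organic anion transporter family, stood at 0.326, 0.685 and 0.559 CPM in the cisplatin libraries and at 8.7, 84.4 and 49.6 in the YSJZD libraries, with 136 to 220 in control. Every YSJZD library was below every control library, and the log2 fold change was 6.49 ± 0.83 (SE, adjusted p = 0.000416). That its YSJZD libraries also lay above every cisplatin library was part of the rule that chose it. Mep1b, a meprin protease of the brush border, rose by 6.33 ± 0.53, from 0.38, 0.571 and 1.43 CPM to 29.8, 85 and 75. Slc7a13, an amino acid transporter of the straight proximal tubule, rose by 5.64 ± 0.37, from 3.2 to 3.85 CPM with cisplatin to 90.7, 243 and 206. In each of these 3 genes YSJZD replicate 1 was the lowest of its group. Of the same rank were Slc22a28 (5.89 ± 0.57), Slc22a30 (5.50 ± 0.49), Slc22a26 (5.32 ± 0.57) and Slc22a8 (5.08 ± 0.71), all of the Slc22 transporter family, the glucuronosyltransferase family gene Ugt3a1 (5.02 ± 0.43), the acetyltransferase family gene Nat8f6 (4.92 ± 0.75) and Prok1, a secreted prokineticin (4.85 ± 0.41). Slc22 and Nat8 genes are close paralogs that may compete for the same reads, so single values are less certain than their errors say. Leaving out YSJZD replicate 2 moved Slc22a22 to 5.79, Slc22a28 to 5.30 and Slc22a8 to 4.33, and leaving out cisplatin replicate 3 moved Mep1b to 7.04, Slc22a26 to 6.42, Nat8f6 to 5.96 and Prok1 to 5.62, all still called.

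A pair of genes on chromosome 3 was also among the 12 steepest rises among called genes whose mean reached 10 CPM in either group. Gm10681 (Entrez gene 100043456) went from 2.44, 0 and 0.497 CPM to 75.8, 111 and 216 (log2 fold change 7.05 ± 1.03), and to 9.09 without cisplatin replicate 1 or 8.50 in limma-voom. Gm4450 (Entrez gene 100043461) went from 5.64, 6.91 and 7.94 CPM to 175, 335 and 188 (5.09 ± 0.35). Lack of overlap between the groups was part of the rule that chose both genes. If their transcripts are as alike as their promoters, they may compete for the same reads, so single values are less certain than their errors say. Their promoters are shown because they are near copies of each other, with 248 of 251 aligned bases equal (98.8%) at an offset of 29 bases, and because each holds the HNF1 motif GTTAATNAT. That motif stood in 1.9% of 1053 promoter windows of genes called at least 2-fold higher, in 0.521% of 1536 windows of genes called at least 2-fold lower and in 0.55% of 14176 windows over all tested genes. It stood in 0 of 64 windows of the proximal transporter list and in 1 of 61 (1.64%) of the proximal metabolism list. The windows come from RefSeq (GRCm38.p6), reach from 250 bases before a start to 50 after it, and were found for 11096 of the 13954 tested genes. Printed are the first 280 bases of a window, 5′ to 3′ on the gene's strand, with motif matches on either strand in capitals. Gm10681 lies on the minus strand at chr3:98563980-98564259 and Gm4450 on the minus strand at chr3:98457097-98457376.
Gm10681: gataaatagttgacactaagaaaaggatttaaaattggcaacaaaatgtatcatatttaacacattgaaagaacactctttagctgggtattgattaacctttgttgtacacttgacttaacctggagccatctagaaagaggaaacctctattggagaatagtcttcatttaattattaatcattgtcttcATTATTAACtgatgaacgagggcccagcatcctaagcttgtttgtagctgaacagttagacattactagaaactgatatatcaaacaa
Gm4450: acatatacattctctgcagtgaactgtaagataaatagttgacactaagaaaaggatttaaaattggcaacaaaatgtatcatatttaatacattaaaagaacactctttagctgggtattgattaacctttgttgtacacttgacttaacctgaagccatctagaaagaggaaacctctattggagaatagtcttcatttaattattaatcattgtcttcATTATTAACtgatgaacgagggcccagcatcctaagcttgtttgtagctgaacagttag
These and the other promoters shown were chosen after the matches were seen, and a match of letters is a description, not a bound site.

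Transporters of the proximal tubule rose as a group. Of 58 tested, 45 were called higher (77.6%, against 17.4% of all tested genes) and 1 lower, with a median log2 fold change of 1.77. Slc34a1 (Entrez gene 20505), the sodium phosphate cotransporter, stood at 220, 313 and 122 CPM with cisplatin and at 1255, 4113 and 3203 with YSJZD, against 6548 to 9154 in control (3.71 ± 0.47, adjusted p = 0.000406). All YSJZD libraries lay above all cisplatin libraries, and none reached the lowest control library. Slc22a12, the urate transporter, rose by 3.26 ± 0.26 from 124 to 218 CPM with cisplatin to 1307 to 2098, and Slc22a6, the organic anion transporter OAT1, by 2.87 ± 0.25 from 94 to 182 CPM to 936 to 1231. Others with the smallest p were Slc6a20b, a transporter of proline (3.09 ± 0.21), and Slc22a19, an organic anion carrier (3.96 ± 0.30). The exception was Slc20a1, a phosphate transporter found in many cell types, which fell from 251 to 435 CPM to 120 to 218 (-0.94 ± 0.24). It was chosen after its value was seen, as were all genes below that are described as exceptions to their list.

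Genes of protein uptake and the brush border followed the same direction, with 24 of 31 tested called higher and 0 lower (median 0.95). The uptake receptor megalin, Lrp2, stood at 372, 240 and 201 CPM with cisplatin and at 840, 1510 and 1407 with YSJZD, and 3083 to 3413 in control (2.21 ± 0.28). Its partner cubilin, Cubn, rose by 2.40 ± 0.20, the meprin Mep1a by 2.29 ± 0.19 and Ggt1, which cleaves glutathione, by 1.86 ± 0.17. The highest rise in CPM was that of Kap (Entrez gene 16483), an androgen-regulated protein of the proximal tubule in the metabolism list below, from 4517, 2041 and 5180 CPM to 11088, 21527 and 9380 (1.84 ± 0.41). Its control libraries stood at 42347 to 61121 CPM.

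Proximal metabolism had the largest share of rises among the 58 lists examined, with 58 of 70 tested genes called higher (82.9%), 1 lower and a median of 1.89. Ugt3a2, like Ugt3a1 a sugar-conjugating enzyme, rose by 3.35 ± 0.28, and the choline pathway enzymes Dmgdh and Bhmt2 rose by 2.70 ± 0.19 and 2.66 ± 0.18. Bhmt2 stood at 17.7, 17.2 and 15.1 CPM with cisplatin, at 79.5, 117 and 119 with YSJZD, and at 160 to 194 in control. The exception was Cyp27b1, the enzyme that activates vitamin D, at 81.3, 89 and 76.8 CPM with cisplatin and 18.3, 10.6 and 21.3 with YSJZD (-2.30 ± 0.42), near its control range of 2.62 to 11.6.

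In the thick ascending limb, which lies beyond the proximal tubule, 15 of 19 tested markers were called higher and 0 lower (median 1.54). The growth factor gene Egf stood at 47.6, 19.1 and 30.4 CPM with cisplatin and at 207, 605 and 476 with YSJZD, against 922 to 1681 in control (3.73 ± 0.46). Cldn10, a paracellular channel (1.57 ± 0.18), Bsnd, a chloride channel subunit (1.89 ± 0.32) and Sostdc1, a secreted BMP inhibitor (2.59 ± 0.34), rose too. Umod, which encodes the abundant urinary protein uromodulin, stood at 542, 1062 and 1619 CPM against 1466, 2592 and 2582 and was not called (1.04, 95% interval 0.16 to 1.93, adjusted p = 0.0653).

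Distal convoluted tubule markers were called higher in 8 of 18 and lower in 0 (median 0.96). Slc12a3, the thiazide-sensitive sodium chloride cotransporter, went from 4.34, 8.73 and 22.7 CPM to 114, 93.4 and 109 (3.15 ± 0.47), and to 4.01 without cisplatin replicate 3. Kl, which encodes the FGF23 coreceptor klotho, stood at 39, 65 and 50.1 CPM with cisplatin and 326, 324 and 382 with YSJZD, against 1030 to 1138 in control (2.74 ± 0.19). Pvalb, the calcium buffer of this segment, rose from 0.163, 0.4 and 0.621 CPM to 2.39, 3.15 and 3.44 (2.93 ± 0.46) and stayed far under its control range of 40.4 to 92.3. In these 3 genes every YSJZD library lay between the cisplatin and the control libraries.

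In the collecting duct, 9 of 19 intercalated cell markers were higher and 1 lower (median 1.13), and 7 of 19 principal cell markers were higher and 2 lower (median 0.53). The ammonia channel Rhcg (2.48 ± 0.31), the bicarbonate exchanger Slc4a1 (3.08 ± 0.39) and the sodium channel subunit Scnn1g (1.76 ± 0.27) rose. Scnn1g reached 50.1, 32.4 and 43.7 CPM, and control lay at 30.5 to 34.4. The exceptions were the keratin Krt18 (-2.13 ± 0.40), which injured tubules also make, the sialyltransferase St6gal1 (-1.23 ± 0.26) and Kit (-1.68 ± 0.58). Kit rested on cisplatin replicate 3 at 133 CPM against 20.7 and 28.3, its value was -0.38 without that library, and its call was lost without any library but cisplatin replicate 1 or 2. The water channel Aqp2 was not called (-0.12, 95% interval -1.04 to 0.80). Principal cell rises numbered 4 in place of 7 without control replicate 1 or YSJZD replicate 3 or with the 6 libraries alone. In bulk RNA, fewer cells of a type and less RNA per cell cannot be told apart, here and for all cell markers below.

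**Figure D2:**
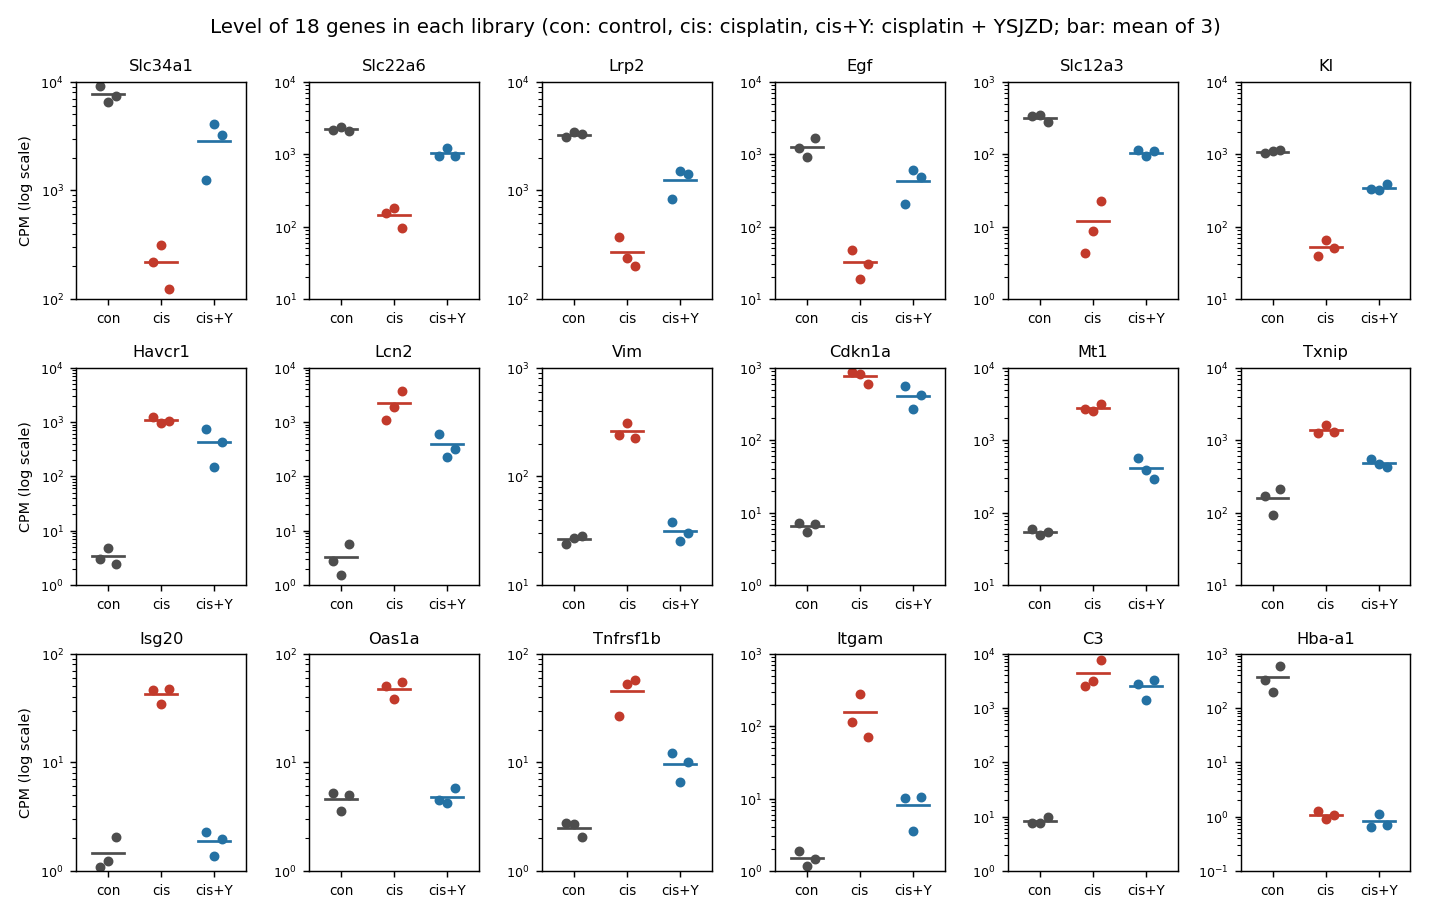
CPM (log scale) of 18 genes in each of 9 libraries by group, with a bar at the mean of 3. In the upper row the YSJZD libraries lie between cisplatin and control for tubule genes such as Kl (324 to 382 CPM), while those of Isg20 and Oas1a overlap the control range and Hba-a1 stays near 1 CPM in both cisplatin groups.

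Among 77 nuclear genes of the respiratory chain, 31 were called higher and 0 lower (median 0.38). That count was 20 without cisplatin replicate 1, cisplatin replicate 3 or YSJZD replicate 3. Sdha of complex II stood at 209, 235 and 216 CPM with cisplatin and 390, 524 and 500 with YSJZD (1.10 ± 0.16), with control at 664 to 831. The complex I subunits Ndufs1 (1.21 ± 0.21) and Ndufv1 (0.75 ± 0.13) and the complex IV subunit Cox7a1 (1.68 ± 0.29) rose as well. Of 78 mitochondrial ribosome genes, 22 were higher and 1, Mrpl33 (-0.99 ± 0.21), was lower (median 0.30), with 11 higher without cisplatin replicate 2 and 12 without YSJZD replicate 3.

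Of 64 tested genes of fatty acid oxidation and PPARA targets, 33 were higher (51.6%, against 17.4% of all tested genes) and 3 lower (median 0.59). The peroxisomal oxidase Acox2 (3.54 ± 0.30), the ketone enzyme Bdh1 (2.70 ± 0.25), the medium-chain ligase Acsm5 (2.53 ± 0.30) and the carnitine transferase Cpt2 (1.16 ± 0.13) rose. Cpt2 reached 299, 306 and 265 CPM, above all cisplatin (115 to 147) and all control libraries (184 to 205). The fatty acid hydroxylase Cyp4a10, a PPARA target, did so too, at 1912, 2487 and 1744 CPM against 572 to 922 and 281 to 348 (1.51 ± 0.21). Among the 3 that fell were known PPARA targets, the lipid droplet gene Plin2, from 2425, 1696 and 2551 CPM to 1430, 920 and 538 (-1.21 ± 0.31), and the pyruvate dehydrogenase kinase Pdk4 (-1.40 ± 0.38). Pdk4 lost its call without YSJZD replicate 1 or 3 and stood at -1.99 without YSJZD replicate 2. Ppara itself was not called (0.12, 95% interval -0.32 to 0.56), while its coactivator Ppargc1a rose by 1.26 ± 0.22.

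Catabolic enzymes of branched and other amino acids were higher in 25 of 32 and lower in 1 (median 1.11), with the leucine pathway enzymes Ivd (1.96 ± 0.17), Mccc1 (1.74 ± 0.18) and Mccc2 (1.61 ± 0.16) among the smallest p. The exception was the arginase Arg2 (-0.83 ± 0.23), whose call was lost without cisplatin replicate 2 or YSJZD replicate 2 or 3. In NAD metabolism, 15 of 23 genes were higher and 3 lower (median 1.28). Haao of the kynurenine route stood at 14.4, 28.3 and 20.3 CPM with cisplatin and 99.4, 133 and 124 with YSJZD (2.50 ± 0.24), and the nicotinate enzyme Naprt at 61.4, 58.3 and 54 CPM was above all cisplatin and control libraries (1.38 ± 0.18). The 3 that fell use NAD or nicotinamide rather than make it. They were the NAD glycohydrolases Cd38 (-3.01 ± 0.43) and Bst1 (-3.45 ± 0.56) and the methyltransferase Nnmt (-1.67 ± 0.52). Nnmt lost its call without cisplatin replicate 1 or 3 or YSJZD replicate 1 or 2, and Cd38 stood at -2.38 without cisplatin replicate 2.

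Gluconeogenesis genes were higher in 8 of 14 and lower in 0 (median 0.88), with pyruvate carboxylase, Pcx, at 1.38 ± 0.13. Glycolysis genes were higher in 4 of 24 and lower in 8 (median -0.26). Hexokinase 2, Hk2, fell from 18.4, 17.9 and 23.7 CPM to 2.39, 0.919 and 1.48 (-3.63 ± 0.32) and the lactate exporter Slc16a3 by 2.92 on the log2 scale, while the muscle-type phosphofructokinase Pfkm rose by 1.35 ± 0.19. Of 32 genes of cholesterol synthesis and export, 12 were higher, including Cyp51 (2.68 ± 0.25), Mvd (1.75 ± 0.18) and Sqle (1.27 ± 0.16), which make sterols. Of the 3 that fell, the exporters Abca1 (-1.10 ± 0.16) and Abcg1 (-1.67 ± 0.49) act in cholesterol efflux and Msmo1 (-0.58 ± 0.20) in synthesis. Msmo1 and Abcg1 lost their calls without cisplatin replicate 1, YSJZD replicate 1 or YSJZD replicate 3, Abcg1 also without cisplatin replicate 2 and Msmo1 also without cisplatin replicate 3 or control replicate 2 or 3.

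Regulators of tubule identity moved in both directions, 12 higher and 8 lower of 36 (median 0.00). Hnf4a, the proximal tubule's hepatocyte nuclear factor, stood at 262, 427 and 262 CPM with cisplatin and 735, 864 and 795 with YSJZD (1.33 ± 0.20), with control at 1143 to 1375. Emx1, a homeobox gene (2.66 ± 0.20), and Esrra, a regulator of mitochondrial genes (1.09 ± 0.15), rose. Runx1, which is switched on in injured tubules, fell from 26.9 to 32 CPM to 2.56 to 5.31 (-3.00 ± 0.27). Among lower genes 5 in place of 8 were called without YSJZD replicate 3.

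**Figure D3:**
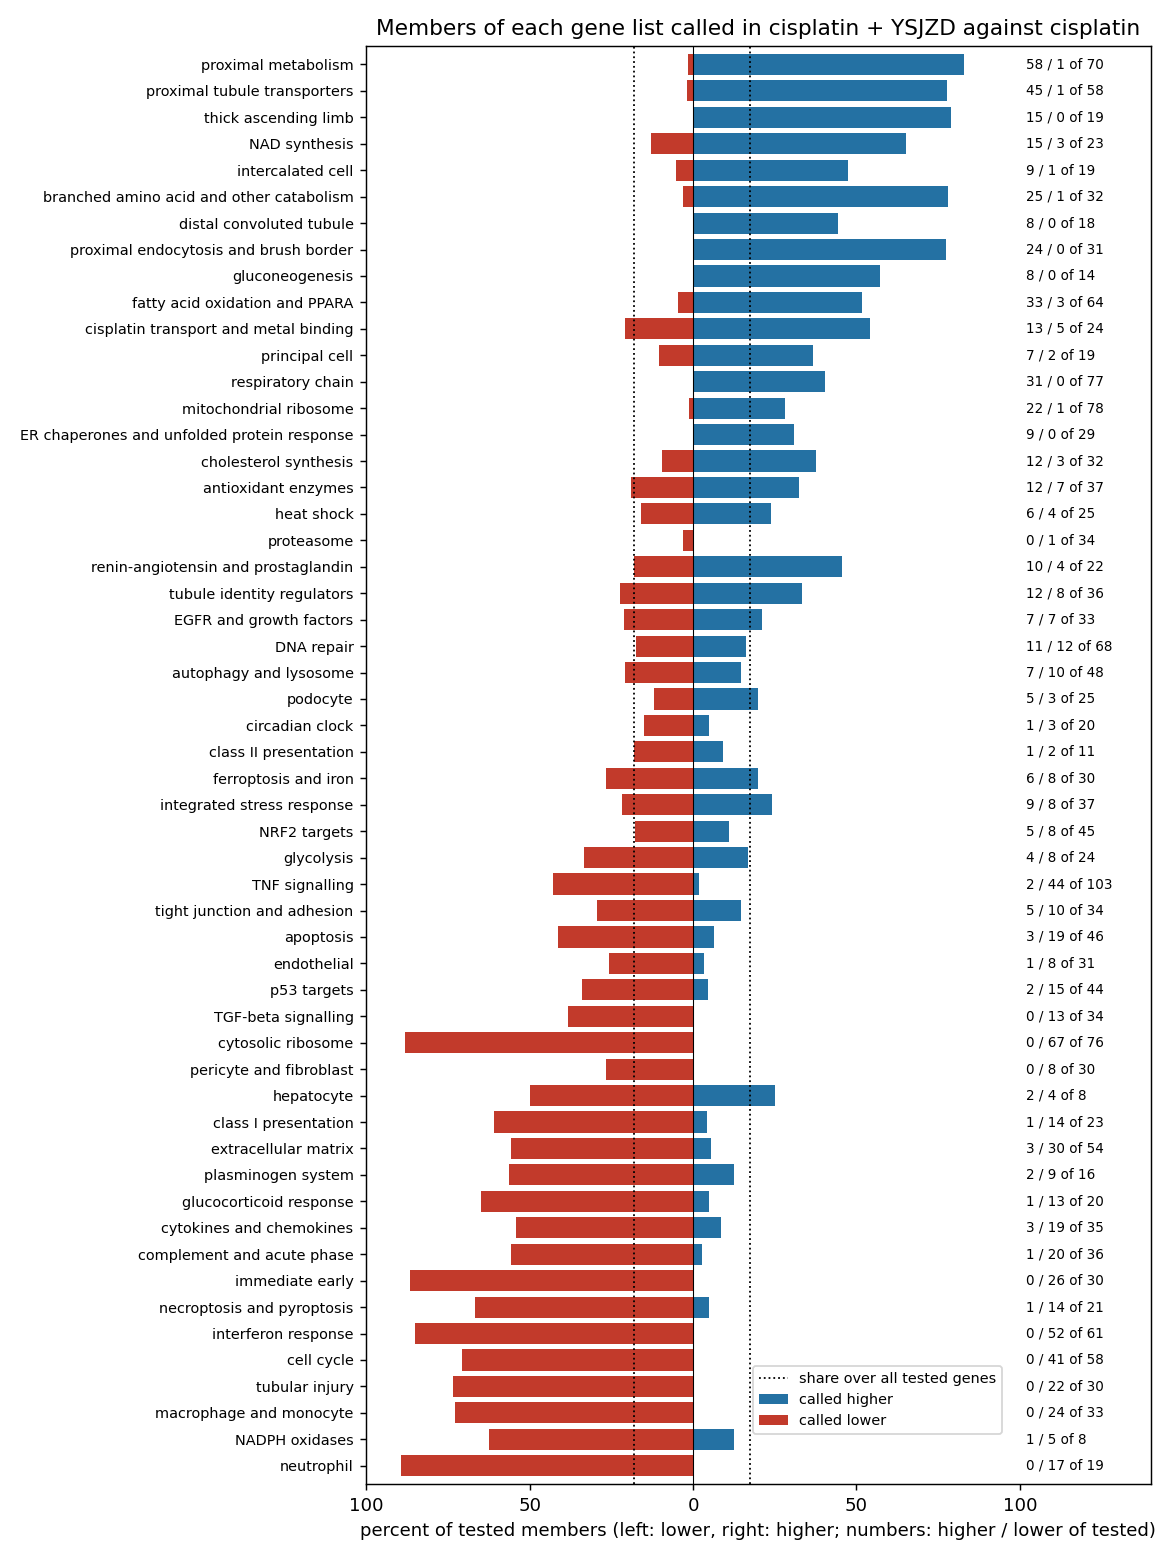
Percent of tested members called higher (right, blue) or lower (left, red) in YSJZD against cisplatin for each list with 8 or more tested genes, ordered by median log2 fold change. Dotted lines mark the 17.4% and 18% over all tested genes, and proximal metabolism (58 of 70 higher) and neutrophil genes (17 of 19 lower) are at the ends.

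Injury genes of the tubule were lower with YSJZD in 22 of 30 tested (73.3%, against 18% of all tested genes) and higher in 0, with a median of -1.86. Vim, the intermediate filament gene of dedifferentiated cells, stood at 242, 310 and 226 CPM with cisplatin, at 37.7, 25.6 and 30.2 with YSJZD and at 23.6 to 28.5 in control (-3.06 ± 0.19, adjusted p = 4.18e-05). Its YSJZD range reached into the control range. Krt20, a keratin of injured tubules, fell from 470, 313 and 1244 CPM to 46.2, 17.3 and 36.7 (-4.34 ± 0.56) but stayed far above its control level of at most 0.219, and stood at -3.55 without cisplatin replicate 3. The calcium binding gene S100a6 (-4.30 ± 0.43) and the junction gene Cldn4 (-2.44 ± 0.31) fell too. Lcn2 (Entrez gene 16819), which encodes NGAL, stood at 1077, 1860 and 3685 CPM with cisplatin and 616, 228 and 326 with YSJZD (-2.50 ± 0.54).

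The injury marker KIM-1 was a weaker call than its neighbours in this list. Havcr1 (Entrez gene 171283), which encodes it, stood at 1267, 962 and 1041 CPM with cisplatin and at 736, 149 and 425 with YSJZD, against 2.38 to 4.81 in control. The groups did not overlap, but the YSJZD libraries spread widely and the log2 fold change was -1.32 ± 0.45 (95% interval -2.33 to -0.31, adjusted p = 0.0444). It was -1.92 without YSJZD replicate 1, and the call was lost in every other fit that left out 1 library of the 9, with -0.90 without YSJZD replicate 2. Spp1, which encodes osteopontin, was not called and stood at 10869, 16397 and 27620 CPM with cisplatin and 13823, 11162 and 11819 with YSJZD (-0.58, 95% interval -1.23 to 0.08). Clu, the chaperone clusterin, was also not called (-0.87, 95% interval -1.92 to 0.18).

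Targets of p53 were lower in 15 of 44 and higher in 2 (median -0.54). Cdkn1a, the cell cycle inhibitor p21, stood at 885, 834 and 598 CPM with cisplatin and 553, 269 and 415 with YSJZD, with 5.46 to 7.06 in control (-0.91 ± 0.25, adjusted p = 0.019). Its groups did not overlap, yet the call was lost without cisplatin replicate 1 or 2 or YSJZD replicate 2 or 3. Mdm2, which restrains p53, fell by 0.62 on the log2 scale (SE 0.13), the growth arrest gene Btg2 by 1.81, the stress gene Ddit4 by 1.71 and the cell death gene Pmaip1 by 1.55. The 2 that rose are enzymes, Dglucy, of glutamate metabolism (1.61 ± 0.12), and Dcxr, a sugar reductase (0.82 ± 0.19). Without cisplatin replicate 1 or YSJZD replicate 2, 9 targets in place of 15 were lower.

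Immediate early genes, which answer growth factors and stress within minutes, were lower in 26 of 30 and higher in 0 (median -1.51). Egr1 stood at 190, 203 and 234 CPM with cisplatin, 71.2, 38.1 and 48.7 with YSJZD and 3.51 to 4.95 in control (-1.99 ± 0.22). The transcription factor genes Klf4 (-1.99 ± 0.18), Junb (-1.48 ± 0.14) and Ier2 (-1.51 ± 0.16) fell too, and for each of these 4 genes every YSJZD library lay between the cisplatin and the control range. Genes that answer glucocorticoids were lower in 13 of 20 and higher in 1, Klf15 (0.90 ± 0.22), with a median of -1.15. Among them Cebpd fell by 2.05 and the interleukin-6 receptor gene Il6ra by 2.47 on the log2 scale.

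The metallothioneins Mt1 and Mt2, small proteins that bind zinc, copper and platinum, had the first and the third largest fall in mean CPM among called genes with a symbol. Mt1 (Entrez gene 17748) stood at 2716, 2501 and 3126 CPM with cisplatin, 559, 392 and 295 with YSJZD and 49.5 to 60 in control (-2.74 ± 0.23, adjusted p = 6.07e-05). Mt2 (Entrez gene 17750) stood at 1500, 1471 and 1614 CPM with cisplatin, 298, 190 and 195 with YSJZD and 10.3 to 13.8 in control (-2.75 ± 0.21). For both, the YSJZD libraries lay between the other groups without overlap. These genes are driven by metal response elements. Only the letters TGCGCNC were searched, and other forms of the element were neither marked nor counted. These letters are frequent, in 25.1% of windows over all tested genes. They are shown in capitals where they stand in the promoters of Mt1 (chr8:94178839-94179118, plus strand) and Mt2 (chr8:94172368-94172647, plus strand).
Mt1: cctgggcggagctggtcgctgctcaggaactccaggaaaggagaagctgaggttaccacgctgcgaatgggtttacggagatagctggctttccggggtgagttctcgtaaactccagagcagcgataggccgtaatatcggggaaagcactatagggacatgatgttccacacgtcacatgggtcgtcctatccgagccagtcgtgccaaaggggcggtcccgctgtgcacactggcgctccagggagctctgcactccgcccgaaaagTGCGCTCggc
Mt2: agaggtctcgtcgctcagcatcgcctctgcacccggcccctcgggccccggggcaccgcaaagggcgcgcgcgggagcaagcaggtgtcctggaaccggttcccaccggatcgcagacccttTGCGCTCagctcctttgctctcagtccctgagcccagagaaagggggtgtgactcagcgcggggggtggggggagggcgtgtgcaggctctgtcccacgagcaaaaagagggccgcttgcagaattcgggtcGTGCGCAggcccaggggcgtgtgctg
The Mt1 stretch holds 1 match and the Mt2 stretch 2.

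In the list of cisplatin transport and metal binding, which includes Mt1 and Mt2, 13 of 24 genes rose and 5 fell (median 0.57). Slc22a2, the organic cation transporter OCT2 that carries cisplatin into the tubule cell, stood at 63.2, 86.4 and 126 CPM with cisplatin and 336, 343 and 290 with YSJZD (1.81 ± 0.22), with 563 to 611 in control. Slc47a1, the exporter MATE1, rose by 1.37 ± 0.13 and the copper transporter Slc31a1 by 0.68 ± 0.15. Besides Mt1 and Mt2 the genes that fell were Mt3 (-2.64 ± 0.77), the zinc importer Slc39a14 (-1.23 ± 0.28) and the copper chaperone Atox1 (-0.41 ± 0.14). Mt3, at about 1 CPM, lost its call without cisplatin replicate 2 or any 1 of the YSJZD libraries, and Atox1 lost it without control replicate 2, YSJZD replicate 2 or 3 or any 1 of the cisplatin libraries. Without cisplatin replicate 2 or YSJZD replicate 2, 3 genes in place of 5 were lower.

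TNF signalling, in which the cytokine TNF acts through its receptors on NF-kB and MAP kinases, was lower in 44 of 103 tested genes and higher in 2 (median -0.40). Tnf itself was scarce, at 0.977, 1.14 and 3.54 CPM with cisplatin and 0.409, 0.459 and 0.652 with YSJZD (-1.87 ± 0.62, adjusted p = 0.0377). Its groups did not overlap, but the value was -1.05 (adjusted p = 0.162) without cisplatin replicate 3, and the call was also lost without control replicate 3 or any 1 of the YSJZD libraries. Tnfrsf1b, the receptor TNFR2 of immune cells, fell from 26.6, 52.7 and 57 CPM to 12.3, 6.56 and 9.97 (-2.24 ± 0.31), whereas Tnfrsf1a, the receptor TNFR1 found on most cells, stood at 144 to 178 CPM with cisplatin and 116 to 173 with YSJZD (-0.21, 95% interval -0.61 to 0.20). No test of the difference between the 2 receptors was made. Markers of macrophages and neutrophils were also lower with YSJZD, with values given below, and their part in this and the other inflammatory lists was not tested.

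Downstream of the receptors, the inhibitor gene Nfkbia fell from 89, 132 and 166 CPM to 43.3, 61.2 and 56.6 (-1.26 ± 0.22). The NF-kB subunit Nfkb1 fell by 0.79 (SE 0.23, adjusted p = 0.0217), a call that was lost without YSJZD replicate 2 or 3. The membrane protease Mmp14 (-2.02 ± 0.19) and Mlkl, the effector of necroptosis (-2.49 ± 0.24), were among the smallest p of this list. Among the 2 that rose was the kinase Map2k6 (1.26 ± 0.28).

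Cytokine and chemokine genes were lower in 19 of 35 tested (of 48 in the table) and higher in 3, with a median of -1.23. Cxcl3, a neutrophil attractant, stood at 10.5, 14 and 6.95 CPM with cisplatin and 0.0584, 0.131 and 0.119 with YSJZD (-6.58 ± 0.50), with no count in control. Its neighbour in function Cxcl1 was not called, at 20.5, 51.3 and 109 CPM against 21.6, 41.7 and 29.1 (-0.97, 95% interval -2.03 to 0.09). Ccl2, which attracts monocytes, fell from 8.84, 11 and 10.6 CPM to 1.46, 1.25 and 4.8 (-2.01 ± 0.57), to -2.89 without YSJZD replicate 3, and lost its call without YSJZD replicate 1 or 2. Il1b fell from 2.44, 4.68 and 7.26 CPM to 0.817, 0.262 and 0.712 (-2.97 ± 0.59). The macrophage chemokines Ccl9 (-4.69 ± 0.72) and Ccl6 (-4.51 ± 0.83) were highest in cisplatin replicate 2, at 298 and 436 CPM, and stood at -3.54 and -2.87 without it. Il6 had too few counts for the fit, with 39 over the cisplatin libraries and 2 over the YSJZD libraries. The pooled ratio was 18.4 (95% exact counting interval 4.77 to 158, counting error only). That interval leaves out the spread between libraries, and cisplatin replicate 1 was highest, at 1.41 CPM against 0.343 and 0.434 in the other cisplatin libraries. The 3 that rose are made by tubule or stromal cells in the healthy kidney. Cx3cl1 (0.86 ± 0.17) rose, as did Cxcl12 (1.60 ± 0.44) and Ccl28 (2.05 ± 0.59), whose calls were lost without YSJZD replicate 2 or 3.

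Complement and acute-phase genes were lower in 20 of 36 and higher in 1 (median -1.39). The protease inhibitors Serpina3n (-2.90 ± 0.35) and Serpina3g (-2.43 ± 0.26), the plasma protein gene Orm2 (-4.79 ± 0.57) and the endotoxin carrier Lbp (-1.41 ± 0.20) fell. Orm2 stood at -5.42 without YSJZD replicate 1. C3, the central complement component, overlapped between groups at 2590, 3108 and 7711 CPM against 2767, 1413 and 3330 (-0.84, 95% interval -1.77 to 0.09), while control stood at 7.5 to 9.87. The complement gene C4b rose from 20.1, 17.4 and 83.5 CPM to 135, 127 and 104 (1.60 ± 0.52), was 2.70 without cisplatin replicate 3, and lost its call without control replicate 3 or any 1 of the other cisplatin and YSJZD libraries.

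Of 61 interferon response genes tested, 52 were called lower (85.2%, against 18%) and 0 higher, with a median of -1.70. Isg20, an antiviral exonuclease (Entrez gene 57444), stood at 46.4, 34.2 and 47.5 CPM with cisplatin, 2.28, 1.38 and 1.96 with YSJZD and 1.09 to 2.05 in control (-4.50 ± 0.28). Oas1a, which makes the activator of RNase L, stood at 50.1, 38.1 and 54.7 CPM with cisplatin, 4.49, 4.2 and 5.75 with YSJZD and 3.57 to 5.17 in control (-3.30 ± 0.22). Ifitm3, which blocks viral entry, stood at 154, 193 and 207 CPM with cisplatin, 34.6, 45.2 and 40 with YSJZD and 42.9 to 45.6 in control (-2.21 ± 0.15). In these 3 genes the YSJZD libraries overlapped the control range. The antiviral Rsad2 fell by 4.07 on the log2 scale (SE 0.37) and Oasl1 fell by 3.46 (SE 0.24).

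Interferon genes are known to share the interferon-stimulated response element, whose core is GAAANNGAA. It stood in 47.5% of 61 promoter windows, which belong to 50 genes of the list, and in 7.25% of windows over all tested genes, and in 11% of windows of genes called at least 2-fold lower against 7.03% of those at least 2-fold higher. Promoters of Oas1a (chr5:120907496-120907775), Ifitm3 (chr7:141010715-141010994) and the galectin gene Lgals9 (chr11:78984895-78985174), all on the minus strand, are shown with their matches in capitals. Each stretch holds 2 matches, which overlap in Oas1a.
Oas1a: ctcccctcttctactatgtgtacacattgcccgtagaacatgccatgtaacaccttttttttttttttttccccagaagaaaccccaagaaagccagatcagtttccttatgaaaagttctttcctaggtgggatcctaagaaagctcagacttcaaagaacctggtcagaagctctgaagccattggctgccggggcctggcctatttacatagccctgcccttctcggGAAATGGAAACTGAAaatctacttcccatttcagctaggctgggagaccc
Ifitm3: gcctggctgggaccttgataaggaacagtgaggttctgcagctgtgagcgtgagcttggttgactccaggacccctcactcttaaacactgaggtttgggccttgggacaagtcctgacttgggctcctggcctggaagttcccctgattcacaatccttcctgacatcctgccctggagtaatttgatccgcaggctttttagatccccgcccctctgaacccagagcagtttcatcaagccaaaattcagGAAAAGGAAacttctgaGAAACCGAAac
Lgals9: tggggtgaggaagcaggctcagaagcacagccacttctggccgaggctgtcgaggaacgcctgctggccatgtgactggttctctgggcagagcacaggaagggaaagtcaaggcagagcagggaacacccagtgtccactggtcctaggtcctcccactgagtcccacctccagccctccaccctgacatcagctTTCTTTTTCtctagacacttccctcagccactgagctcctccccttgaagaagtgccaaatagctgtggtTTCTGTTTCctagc
Lgals9 stood at 41, 52 and 31.3 CPM with cisplatin and at 5.43, 6.89 and 5.93 with YSJZD, below its control range of 9.25 to 13.4 (-2.77 ± 0.23).

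Class I antigen presentation genes were lower in 14 of 23 and higher in 1, the chaperone Calr (0.82 ± 0.16), with a median of -0.84. The peptide transporter Tap1 fell from 88.3, 87.2 and 92.5 CPM to 31.9, 23.4 and 33.2 (-1.60 ± 0.17) and the class I regulator Nlrc5 by 1.62. H2-D1, a class I heavy chain gene, went from 2051, 2603 and 1814 CPM to 1120, 795 and 1392 (-0.97 ± 0.27), a call lost without cisplatin replicate 2 or YSJZD replicate 2. Without YSJZD replicate 2, 8 class I genes in place of 14 were lower. H2 genes are close paralogs. Class II genes were called in 3 of 11 (median -0.09), and no test compared the 2 classes. Cd74, the invariant chain, stood at 339, 453 and 940 CPM with cisplatin and 466, 293 and 841 with YSJZD (-0.11, 95% interval -1.07 to 0.84). Ciita, the regulator of class II genes, rose from 0.922, 1.2 and 2.11 CPM to 9.28, 8.73 and 7.47, above its control range of 2.11 to 3.05 (2.59 ± 0.34). The lysosomal protease Ctss fell by 3.70 (SE 0.58; -2.69 without cisplatin replicate 2) and the reductase Ifi30 by 0.86 (SE 0.22), a call lost without YSJZD replicate 2 or 3.

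**Figure D4:**
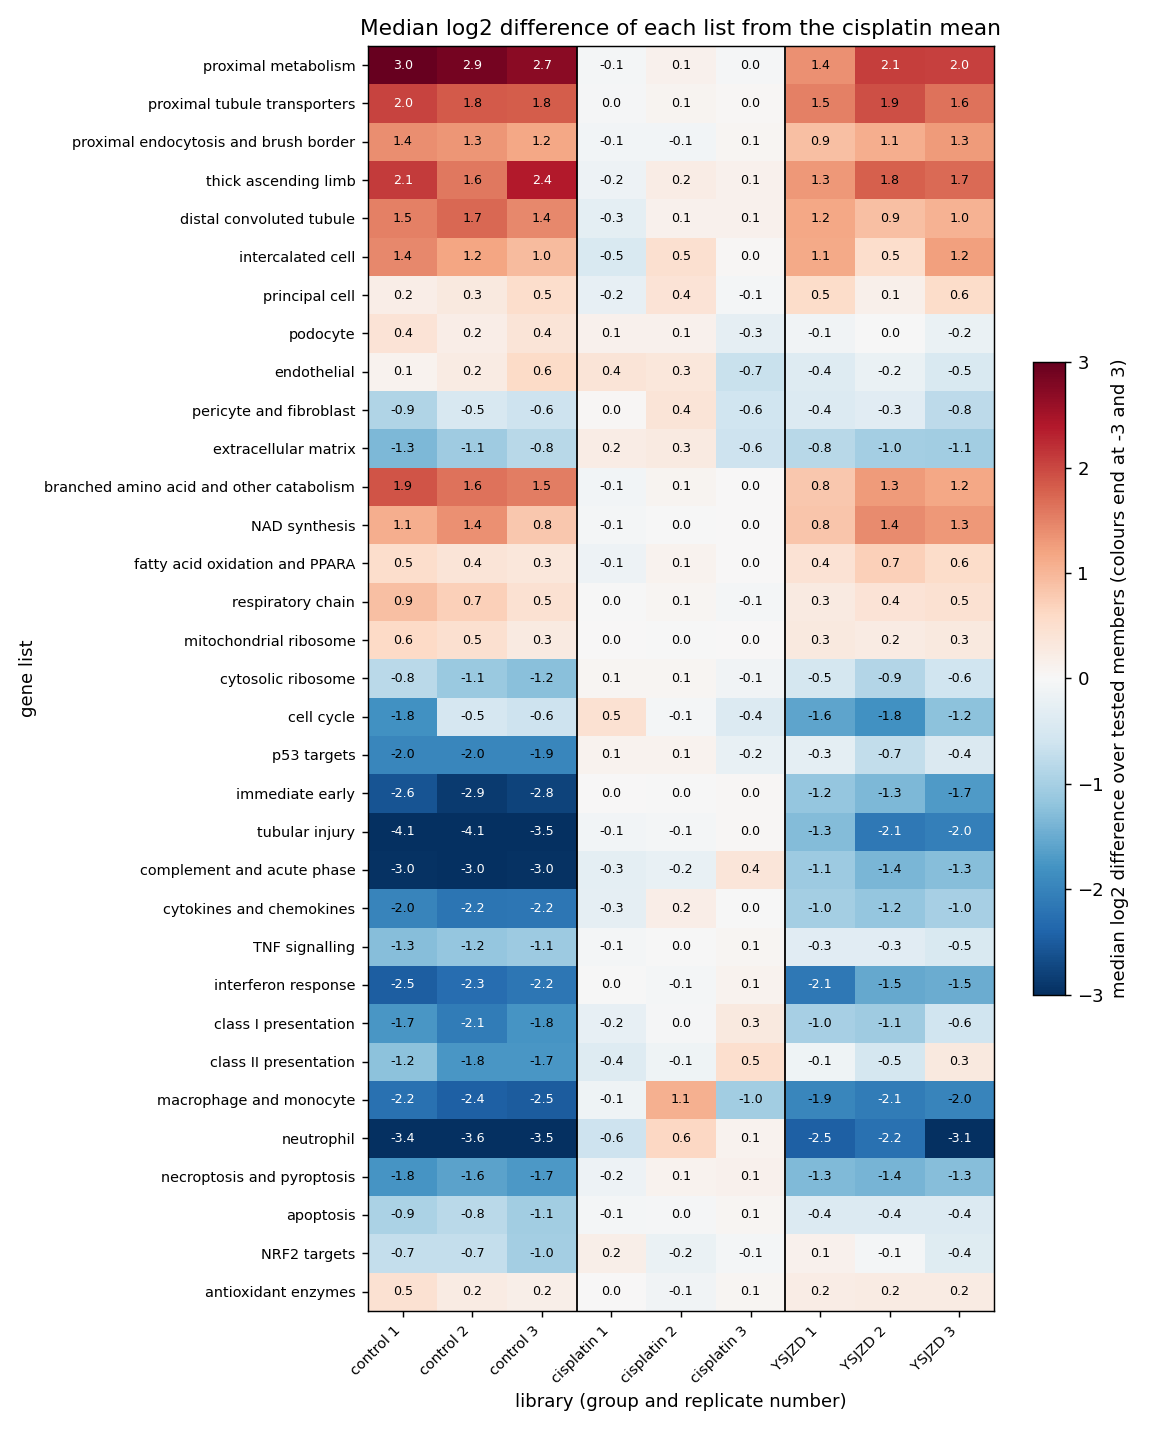
Median log2 difference from the cisplatin mean over the tested members of 33 lists (rows) in each of 9 libraries (columns), red above and blue below, with colours ending at -3 and 3. Proximal lists are red in all YSJZD and control libraries, interferon and neutrophil lists blue, and cisplatin replicates 2 and 3 stand out in the macrophage and endothelial rows.

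Markers of macrophages and monocytes were lower in 24 of 33 and higher in 0, with a median of -2.72. Their summed level was 1851, 4682 and 3238 CPM in the cisplatin libraries, 855, 543 and 586 in the YSJZD libraries and 167 to 236 in control. The sum rests on the most abundant members and ranks the cisplatin libraries otherwise than the median does. The median log2 difference of tested members from the cisplatin mean was -0.14, 1.07 and -1.04 in the cisplatin libraries, lowest in replicate 3. It was -1.95, -2.09 and -1.98 in the YSJZD libraries. Arg1, the arginase of wound macrophages, had the steepest fall of all named genes, from 28.4, 103 and 23.3 CPM to 0.234, 0.197 and 0.415 (-7.47 ± 0.73). Cd68, a lysosomal macrophage protein, fell from 100, 128 and 102 CPM to 22.8, 9.12 and 11.3 (-2.93 ± 0.30). Itgam, the integrin CD11b, fell from 116, 277 and 70.9 CPM to 10.2, 3.61 and 10.6 (-4.24 ± 0.54). Lysozyme, Lyz2, stood at 298, 1164 and 128 CPM against 36.2, 21.5 and 46.6 (-3.93 ± 0.72), and Adgre1, the marker F4/80 of resident macrophages, at 9.33, 25.6 and 3.23 CPM against 2.1, 1.97 and 2.02 (-2.65 ± 0.64). All 5 were highest in cisplatin replicate 2. Without it Arg1 stood at -6.47, Itgam at -3.52, Lyz2 at -2.61 and Adgre1 at -1.63, all still called, and Adgre1 lost its call in limma-voom (adjusted p = 0.0583).

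Neutrophil genes were lower in 17 of 19 tested (89.5%) of 24 in the table, with 0 higher and a median of -3.80. The alarmins S100a8 (5.53, 17.3 and 19.4 CPM to 0.876, 0.984 and 0.475) and S100a9 (5.43, 12.2 and 17.6 CPM to 1.52, 2.23 and 0.771) fell by 4.17 and 2.96 on the log2 scale. The decoy receptor Il1r2 (-5.89 ± 0.62), the collagenase Mmp8 (-5.52 ± 0.77) and the lectins Clec4d (-6.15 ± 0.77) and Clec4e (-5.31 ± 0.54) fell as well. Mmp8 stood at -4.83 and Clec4d at -5.20 without cisplatin replicate 2, and Il1r2 at -6.81 and Clec4d at -6.76 without YSJZD replicate 1. Hdc, a histidine decarboxylase that the proximal tubule also makes, was a member that was not called, at 2.98, 416 and 3.64 CPM in control and 6.42, 141 and 119 with YSJZD. Because of it the summed level of the list overlapped between groups, at 86.2, 269 and 181 CPM with cisplatin and 19.8, 160 and 127 with YSJZD.

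Lymphocyte genes were near the limit of detection. Only 6 of 23 T and NK cell genes and 4 of 14 B and plasma cell genes had enough counts to test, and of these 2 T and NK cell genes were called lower, the T cell kinase Lck among them, Cd8a was called higher, and no B cell gene was called either way. Cd8a stood at 0.0543, 0.228 and 0 CPM against 3.15, 0.328 and 4.98 (4.78 ± 1.46), was 6.27 without cisplatin replicate 2 and lost its call without cisplatin replicate 1 or 3 or YSJZD replicate 1 or 3. Lck (-1.16 ± 0.39) lost its call without control replicate 2 or 3 or any 1 library except control replicate 1 and cisplatin replicate 3.

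The 12 steepest falls at a mean of at least 10 CPM also held Chil3, a chitinase-like protein from the macrophage list, and other genes that are in no list. Chil3 fell from 184, 859 and 240 CPM to 10.5, 4.59 and 8.78 (-5.74 ± 0.65). The protease inhibitor Slpi (-5.68 ± 0.78), the membrane genes Ms4a8a (-5.48 ± 0.83) and Ms4a4a (-5.24 ± 0.72), the apolipoprotein Apoc2 (-5.43 ± 0.81) and the clotting factor F10 (-5.25 ± 0.76) were those in no list. All but Slpi were highest in cisplatin replicate 2, without which the values were -4.73 for Chil3, -4.35 for Ms4a8a, -4.15 for Ms4a4a, -4.45 for Apoc2 and -4.02 for F10. Slpi was highest in cisplatin replicate 1 (-4.62 without it; -6.64 without YSJZD replicate 3). The last of the 12, Hmga1b, is a near copy of Hmga1 and rested on cisplatin replicate 1, with 239 CPM there and 4.11 and 4.34 in the others. Its fall of -7.38 ± 1.73 was -3.10 without that library and was not called in limma-voom.

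Among 46 apoptosis genes, 19 were lower and 3 higher (median -0.49). The initiator caspase Casp8 fell by 0.50 (SE 0.11) and the pore protein Bak1 by 1.26 (SE 0.18). Bax (-0.02, 95% interval -0.42 to 0.39) and Bcl2 (0.21, 95% interval -0.25 to 0.68) were not called. The 3 that rose were the mitochondrial proteins Aifm1 (1.00 ± 0.17) and Endog (1.12 ± 0.16) and the survival gene Bcl2l2 (0.47 ± 0.13), which lost its call without cisplatin replicate 2 or YSJZD replicate 2 or 3. Necroptosis and pyroptosis genes were lower in 14 of 21 and higher in 1 (median -1.52). Ripk3, the kinase of necroptosis, fell from 17.4, 18.8 and 16.1 CPM to 3.21, 1.38 and 2.79 (-2.82 ± 0.32), the nucleic acid sensor Zbp1 fell by 3.43 and the inflammasome gene Nlrp3 by 2.39 on the log2 scale. Txnip, a thioredoxin inhibitor, stood at 1269, 1631 and 1289 CPM against 552, 474 and 430 (-1.52 ± 0.27). The 1 that rose, the pore protein Gsdme (0.86 ± 0.27), lost its call without any 1 of the cisplatin or YSJZD libraries.

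Of 37 antioxidant enzymes, 12 were higher (32.4%, against 17.4% of all tested genes) and 7 lower (18.9%, against 18%), with a median of 0.26. Pon2 (-0.94 ± 0.14) and Selenow (-1.39 ± 0.21) were among those that fell. Catalase, Cat, stood at 422, 398 and 459 CPM with cisplatin and 915, 1174 and 915 with YSJZD (1.23 ± 0.15), and the copper-zinc dismutase Sod1 rose by 0.91 (SE 0.18). The manganese dismutase Sod2 was not called (0.22, 95% interval -0.22 to 0.66), and the lipid peroxidase Gpx4 rose by 0.49 (SE 0.15), a call lost without cisplatin replicate 1 or 2 or YSJZD replicate 1 or 2. Among 45 targets of NRF2, a factor activated by oxidants, 5 were higher and 8 lower (median -0.16), both shares near or under the background. Haem oxygenase Hmox1 (-0.25, 95% interval -0.90 to 0.39) and the quinone reductase Nqo1 (0.37, 95% interval -0.16 to 0.89) were not called, while the cystine importer Slc7a11 fell by 2.30 and the aldose reductase relative Akr1b8 by 1.69 on the log2 scale. The 5 that rose were Gclm (0.55 ± 0.18), Gsta3 (0.98 ± 0.29), Gstm4 (0.66 ± 0.16) and Abcc2 (0.68 ± 0.22), which act in glutathione synthesis, conjugation and export, and the malic enzyme Me1 (0.79 ± 0.16). Gsta3, Abcc2 and Gclm lost their calls without cisplatin replicate 2 or YSJZD replicate 2 or 3, Gsta3 and Abcc2 also without cisplatin replicate 3, and Abcc2 and Gclm also without control replicate 2 or 3 or YSJZD replicate 1, and Gclm without control replicate 1. The count of 5 was 2 without cisplatin replicate 2 or YSJZD replicate 2 and 3 without cisplatin replicate 3, control replicate 2 or YSJZD replicate 3.

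In the NADPH oxidase list, 5 of 8 genes fell and 1 rose (median -2.75). Among those that fell, Cybb (-2.73 ± 0.55), Ncf1 (-2.80 ± 0.50), Ncf4 (-3.24 ± 0.60) and Rac2 (-2.77 ± 0.46) belong to the phagocyte enzyme or its regulators. These genes were highest in cisplatin replicate 2 and stood between -2.46 and -1.78 without it, with each call kept. The 1 that rose, Nox4, is the oxidase of tubule cells. It stood at 73.5, 68.9 and 67.1 CPM with cisplatin and 83.7, 257 and 220 with YSJZD, with control at 171 to 366 (1.42 ± 0.38), and lost its call without YSJZD replicate 2 or 3.

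Extracellular matrix genes were lower in 30 of 54 and higher in 3 (median -1.01). Lox, which crosslinks collagen, fell from 131, 93.6 and 45.3 CPM to 6.36, 6.69 and 4.69 (-3.93 ± 0.36). Fibronectin, Fn1, went from 302, 701 and 223 CPM to 57.7, 52 and 71.5, within its control range of 43.8 to 72.3 (-2.76 ± 0.40; -2.12 without cisplatin replicate 2). The exceptions were Timp3, a protease inhibitor (0.65 ± 0.15), P4ha1, a collagen hydroxylase (0.67 ± 0.14), and the collagen Col5a3 (1.78 ± 0.55), which lost its call without cisplatin replicate 1 or 3 or YSJZD replicate 2. TGF-beta signalling genes were lower in 13 of 34 and higher in 0 (median -0.61), with Tgfb1 at 78.4, 77.3 and 72.2 CPM against 41, 18.6 and 22.9 (-1.46 ± 0.25). In the plasminogen list Plat, the tissue plasminogen activator, fell by 2.66 (SE 0.18).

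Endothelial genes were lower in 8 of 31 and higher in 1 (median -0.51), and pericyte and fibroblast genes were lower in 8 of 30 and higher in 0 (median -0.71). These counts depended on cisplatin replicate 3. Its endothelial genes stood at 881 CPM in sum against 1561 and 1572 in the other cisplatin libraries and 728 to 906 with YSJZD. Control stood at 1242, 1176 and 1406 CPM, above every YSJZD library and below cisplatin replicates 1 and 2. Without cisplatin replicate 3, 17 endothelial and 13 pericyte and fibroblast genes were lower. Without cisplatin replicate 2, 5 pericyte and fibroblast genes were lower. The receptor Flt1 (-1.18 ± 0.24) and the binding protein Igfbp3 (-1.36 ± 0.22) fell, Flt1 to levels below all control libraries. The adhesion gene Pecam1 was not called (62.2, 63 and 31 CPM against 31.8, 38 and 28.9). The higher gene, Sox18 (1.22 ± 0.42), was 1.81 without cisplatin replicate 1 and lost its call without any other library but cisplatin replicate 3. Podocyte genes gave 5 higher and 3 lower of 25 (median -0.05), and 6 lower without cisplatin replicate 3. The collagens Col4a3 (1.04 ± 0.23) and Col4a4 (0.93 ± 0.13), which the tubule shares, Vegfa (1.13 ± 0.22), Clic3 (1.65 ± 0.40) and Clic5 (0.55 ± 0.16) rose, and Nes (-1.80 ± 0.26), Synpo (-1.41 ± 0.21) and Wt1 (-0.91 ± 0.23) fell. Clic5 lost its call without cisplatin replicate 2 or 3 or YSJZD replicate 2 or 3, and Wt1 without YSJZD replicate 2.

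Cell cycle genes were lower in 41 of 58 and higher in 0, with a median of -1.83. Mki67, the proliferation marker, stood at 20.7, 21.1 and 14.4 CPM with cisplatin, 1.69, 2.95 and 7.65 with YSJZD and 2.69, 20.6 and 12.6 in control (-2.19 ± 0.67). It was -3.01 without YSJZD replicate 3 and lost its call without cisplatin replicate 1 or 2 or YSJZD replicate 1 or 2. The mitotic kinase Aurkb fell by 3.13 (SE 0.55; -3.85 without YSJZD replicate 3) and the kinetochore gene Ndc80 by 2.87 (SE 0.47), the latter to levels below all 3 control libraries. Hmgb2, a chromatin protein of dividing cells, fell from 60.1, 49.2 and 50.4 CPM to 18.7, 20.9 and 22.5 (-1.36 ± 0.18). The CCAAT box, known from cell cycle promoters, stood in 74.5% of 51 windows of the list and in 37.1% of all. The Hmgb2 promoter (chr8:57511593-57511872, plus strand) holds 4, in capitals.
Hmgb2: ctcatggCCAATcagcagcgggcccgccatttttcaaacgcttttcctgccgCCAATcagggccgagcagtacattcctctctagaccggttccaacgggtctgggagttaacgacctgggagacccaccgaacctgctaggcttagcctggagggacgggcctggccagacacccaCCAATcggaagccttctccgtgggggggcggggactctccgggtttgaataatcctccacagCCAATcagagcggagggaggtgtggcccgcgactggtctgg
DNA repair genes gave 11 higher and 12 lower of 68 (median -0.02), shares close to the 17.4% and 18% of all tested genes. The higher genes numbered 5 to 7 without cisplatin replicate 2 or YSJZD replicate 2 or 3, and the lower genes 6 or 7 without cisplatin replicate 1 or YSJZD replicate 1 or 2. Members with the smallest p went both ways. The nuclease subunit Ercc1, which acts in the repair of platinum crosslinks, fell from 228, 118 and 70.2 CPM to 30.4, 15.2 and 21.2 (-2.64 ± 0.40). Rad18 (-2.43 ± 0.46) and Eme1 (-2.88 ± 0.62) fell too. Slx4 rose from 32.6, 31.9 and 28.5 CPM to 96.6, 55.9 and 56.1 (1.17 ± 0.20), above all control libraries.

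Cytosolic ribosome genes were lower in 67 of 76 and higher in 0, with a median of -0.66. Their share of all counts was 4.27%, 4.24% and 3.45% with cisplatin, 2.66%, 2.05% and 2.56% with YSJZD and 1.48% to 1.84% in control. Rps12 stood at 600, 568 and 513 CPM against 266, 209 and 262 (-1.19 ± 0.16). Without YSJZD replicate 2, 35 of these genes were lower. Chaperones of the endoplasmic reticulum were higher in 9 of 29 and lower in 0 (median 0.30), led by Calr and Pdia4 (0.79 ± 0.15), with 5 without cisplatin replicate 2 and 3 without YSJZD replicate 3. Proteasome genes were almost uncalled, with 0 higher and 1 lower of 34 (median 0.04). That 1, Psmd8 (-0.61 ± 0.20), had overlapping groups and kept its call only without cisplatin replicate 2 or YSJZD replicate 1 among the 9 fits that left out 1 library.

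With YSJZD some genes lay beyond both other groups. The sulfate transporter Slc13a1 (Entrez gene 55961) stood at 2112, 2135 and 2194 CPM, against 199, 319 and 423 with cisplatin and 281, 352 and 220 in control (2.78 ± 0.28, adjusted p = 0.00012). The GABA and betaine carrier Slc6a13 stood at 133, 123 and 119 CPM, against 27.8 to 36.8 and 60 to 72.4 (1.97 ± 0.14). In both genes the 3 YSJZD libraries agreed closely. That they overlapped neither group was part of the rule that chose these genes. Other genes of the kind were Mbl1, a mannose-binding lectin (3.06 ± 0.43; 3.70 without cisplatin replicate 3), the kynurenine enzyme Kynu (2.42 ± 0.61), the acute-phase gene Saa4 (2.29 ± 0.49), Tstd1, of sulfur metabolism (2.20 ± 0.52; 2.82 without cisplatin replicate 1), the prolactin receptor Prlr (1.97 ± 0.47) and the channel partner Kcnip2 (1.83 ± 0.29).

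On the lower side, the interleukin-10 receptor Il10ra stood at 1.69, 1.71 and 2.08 CPM, against 13.4, 29.6 and 7.94 with cisplatin and 3.11 to 3.57 in control (-3.21 ± 0.44; -2.54 without cisplatin replicate 2). Ptpn22, a phosphatase of immune cells, stood at 14.9, 8.14 and 30.1 CPM, against 53.5, 132 and 236 with cisplatin and 50 to 59 in control (-2.98 ± 0.55). Trim30a, an interferon-induced gene, stood at 2.04, 3.54 and 3.32 CPM, against 18, 27.3 and 21.8 and 5.97 to 6.63 (-2.91 ± 0.25). Besides Cd38 and Lgals9 above, the adaptor Fyb (-2.82 ± 0.38) and the fatty acid carrier Fabp5 (-2.97 ± 0.63) had this pattern. Fabp5 was -2.20 without cisplatin replicate 2 and missed the threshold in limma-voom (adjusted p = 0.0511), and Ptpn22 was -2.39 without cisplatin replicate 3 and -3.60 without YSJZD replicate 3.

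**Figure D5:**
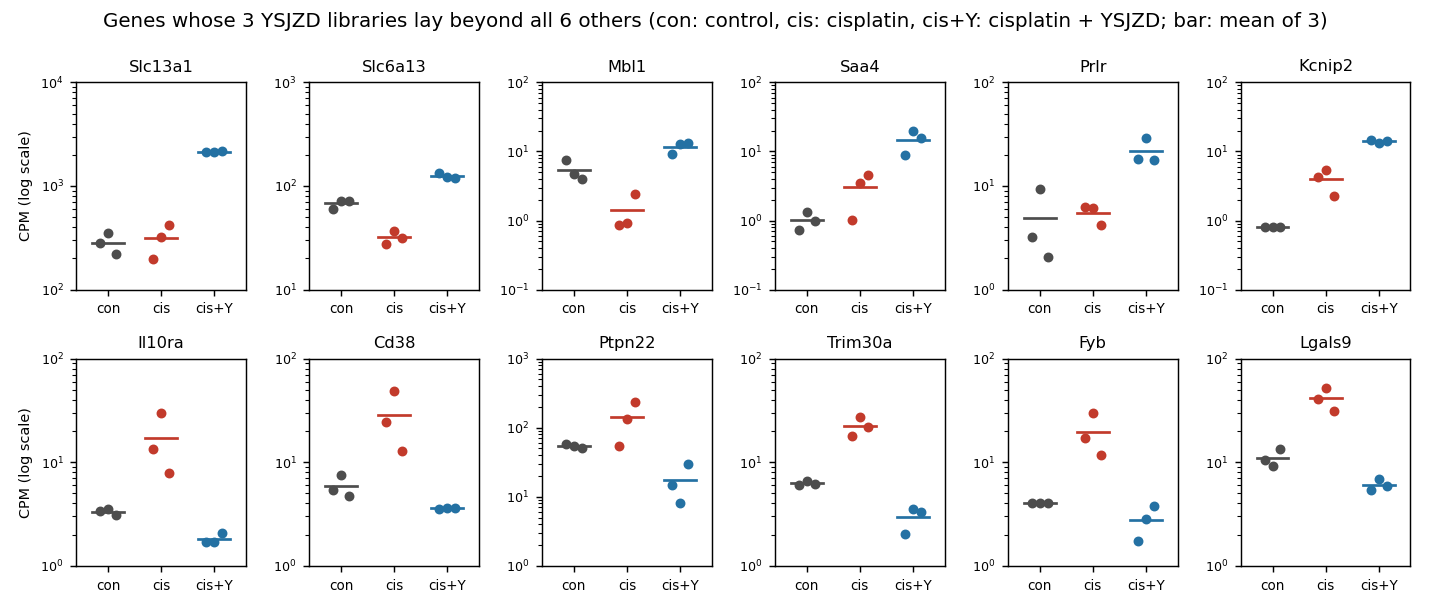
CPM (log scale) of 12 genes whose 3 YSJZD libraries lay above (upper row) or below (lower row) all 6 other libraries, by group, with a bar at the mean of 3. Slc13a1 stands at 2112 to 2194 CPM with YSJZD and at most 423 elsewhere.

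At the other end stood a gene that differed from control in both cisplatin groups by its level and not between them by the test. The haemoglobin gene Hba-a1 was at 1.25, 0.913 and 1.06 CPM with cisplatin and 0.642, 1.12 and 0.712 with YSJZD (-0.39, 95% interval -1.55 to 0.76), against 330, 200 and 589 in control. It has a near copy, and no test against control was made here.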

How the data were processed

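Bulk RNA-seq of 9 kidney cortex samples was used, and the 3 YSJZD libraries were compared with the 3 cisplatin libraries. The values used are expected counts per transcript, deposited by the authors and made with RSEM 1.3.1, per the submitters' processing notes, which also list DESeq2 1.4.5. The authors also deposited FPKM values, which were not tested. The notes name the human build GRCh38 for these mouse libraries, and the sources used here give neither the aligner nor the mouse build. RSEM divides reads among similar transcripts, so close paralogs are uncertain. Library totals of 15029286 to 16690482 limit precision for genes near 1 CPM, and counting intervals cover counting error only.

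Expected counts of 58075 transcripts were summed to 17963 genes and rounded to whole numbers. Of the gene counts, 19.0% to 21.3% were not whole. Symbols came from RefSeq for 17847 genes. edgeR 4.0.16 in R 4.3.3 kept 13954 genes (filterByExpr), scaled by TMM, and fitted all 9 libraries with its quasi-likelihood test, so that control adds to the estimate of spread. P-values were adjusted by Benjamini-Hochberg over all tested genes, and calls have an adjusted p under 0.05. The script was tested on simulated data. SE is the log2 fold change divided by the root of F.

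Named are called genes that reach a mean of 10 CPM in either group, do not overlap and have the 12 steepest rises or 12 steepest falls, the 10 largest rises and falls in mean CPM, up to 4 members of a list by p, marker genes, and the 8 highest and 8 lowest whose YSJZD libraries lay beyond control. Not all genes that this rule gives are printed, and some members that the lists count are not reported here by name. Exceptions to a list, and Spp1, Clu, Cd74, Hdc, Cybb, Pvalb, Rsad2, Klf15, Eif2s3y and Kdm5d, were chosen after their values were seen. The members and lists were chosen with earlier results of these data known. Alternatives were DESeq2 1.42.0, limma-voom (limma 3.58.1), other scalings and filters, the 6 libraries alone, a replicate block and each library left out.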

Additional observations from a re-analysis of the deposited data

How the results depend on the processing

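Every gene called both in the fit reported and in an alternative had the same direction in both. That is a weak check, since the alternatives reuse the same libraries and genes that lost their call are left out. Of the 4942 calls, 3419 were kept without YSJZD replicate 3. Called genes numbered 3496 (without YSJZD replicate 3) to 4871 (without YSJZD replicate 1) when 1 library was left out, 4184 with the 6 libraries alone, 4841 in limma-voom and 5463 in DESeq2, against 4942. Genes called and at least 2-fold lower numbered 1055 in place of 1583 when at least 5 CPM in 3 libraries was required. That filter tests fewer genes, and left 8 of the cytokine genes, 7 of the necroptosis genes and 8 of the neutrophil genes called lower in place of 19, 14 and 17. With the replicate number as a block, 4590 genes were called (2275 higher, 2315 lower). Deviations of same-numbered samples correlated between -0.20 and 0.09, and those of samples with different numbers between -0.20 and 0.24. With 3 samples a group, these values cannot decide whether the numbers pair samples. Under the block Hmga1b stood at -6.30, Ccl6 at -3.91 and gene105246811 at -5.82, and Kit, Lck, Cd8a, Msmo1 and Abcc2 lost their calls. Some genes that were not called changed sign when 1 library was left out, and the cause was not tested. Without cisplatin replicate 2, Aqp2 stood at 0.13 and Bax at 0.02. Without YSJZD replicate 3, Aqp2 stood at 0.19 and Bax at 0.10. Without YSJZD replicate 2, Bax stood at 0.09 and Cd74 at 0.18. Hmox1 stood at 0.07 without cisplatin replicate 1, and without cisplatin replicate 3 Ppara stood at -0.09 and Cd74 at 0.43. Over all fits that left out 1 library, the values ran from -0.52 to 0.19 for Aqp2, -0.27 to 0.10 for Bax, -0.48 to 0.07 for Hmox1, -0.09 to 0.28 for Ppara and -0.60 to 0.43 for Cd74. In limma-voom Ccl6 stood at -3.91 and gene105246811 at -5.56. Genes at or under about 1 CPM, such as Mt3, are limited by depth. Cd8a was under 1 CPM in every cisplatin library, but its YSJZD libraries spread from 0.328 to 4.98 CPM.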

Other observations

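Other gene groups gave smaller or divided counts, to be read beside the 17.4% higher and 18% lower of all tested genes. Of 30 genes of iron handling and ferroptosis, 6 were higher (3 without YSJZD replicate 2) and 8 lower, with the iron importer Slc11a2 at 56.8, 49.6 and 67.5 CPM with cisplatin and 121, 144 and 115 with YSJZD (1.13 ± 0.15) and the transferrin gene Trf at 80.2, 129 and 47.4 against 21.3, 17 and 12 (-2.35 ± 0.36). The integrated stress response gave 9 higher and 8 lower of 37 (24.3% and 21.6%). The phosphatase subunit Ppp1r15a (-1.66 ± 0.16) and the pseudokinase Trib3 (-2.02 ± 0.39) fell, and Cth, which makes cysteine, rose (1.98 ± 0.21). Heat shock genes gave 6 higher and 4 lower of 25 (24% and 16%). Trap1, a chaperone of mitochondria, rose by 1.27 ± 0.13, the co-chaperone Fkbp4 rose too, and the small heat shock proteins Hspb1 (-3.35 ± 0.49; -2.72 without cisplatin replicate 3) and Cryab (-2.50 ± 0.45) fell. In the circadian clock list 1 gene of 20, Hlf (2.61 ± 0.44), was higher and 3 were lower, among them Per1 (-0.77 ± 0.17) and Bhlhe40 (-1.26 ± 0.19). Both clock shares (5% and 15%) were under those of all tested genes.

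Growth factor genes gave 7 higher and 7 lower of 33 (21.2% each), near the shares of all tested genes. Fgf1 rose from 87.7, 71.2 and 62.4 CPM to 293, 364 and 299 (2.11 ± 0.18). Junction genes gave 5 higher and 10 lower of 34 (6 lower without YSJZD replicate 2), with the paracellular channel Cldn2 at 812, 782 and 812 CPM against 388 to 464 (0.95 ± 0.14). In the plasminogen system 2 of 16 were higher and 9 lower. The urokinase receptor Plaur fell by 3.05 on the log2 scale and the plasmin inhibitor Serpinf2 rose by 2.36 ± 0.33. Renin-angiotensin and prostaglandin genes gave 10 higher (6 without cisplatin replicate 1) and 4 lower of 22, and the aminopeptidase Anpep rose by 1.67 ± 0.21 and the converting enzyme Ace by 1.96 ± 0.36 (2.61 without cisplatin replicate 3). Autophagy and lysosome genes gave 7 higher and 10 lower of 48 (14.6% and 20.8%), near the shares of all tested genes. Among markers of other tissues, 2 of 7 erythroid genes were higher and 0 lower. They were Slc4a1, also in the intercalated cell list above, and Bpgm (0.53 ± 0.15), a call lost without YSJZD replicate 2 or 3. Of hepatocyte genes, 2 of 8 were higher and 4 lower. The higher Apob (2.02 ± 0.61) overlapped between groups, at 49.2, 50.5 and 78 CPM against 112, 536 and 75. Its call was lost without YSJZD replicate 2 (0.67) or cisplatin replicate 1 or 2. Of 4 adipocyte and muscle genes, 1 was called each way. The higher one, Actn3 (2.25 ± 0.69), was under 1 CPM in both groups compared. Actn3 and the lower Apoc3 (-0.78 ± 0.23) lost their calls without cisplatin replicate 1 or 2 or YSJZD replicate 2 or 3.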
